A study of Mus musculus with 50 samples.

Results

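The transcriptome of *Ezh2* Y726D mouse embryonic stem cells (ESCs) was compared with that of *Ezh1/2* dKO ESCs. The question was whether cells with a PRC2 complex that is bound to chromatin but enzymatically inactive differ in expression from cells without either enzyme. Both lines lack *Ezh1*. In *Ezh1/2* dKO the *Ezh2* gene was deleted as well, and *Ezh2* Y726D carries a homozygous point mutation of *Ezh2* made in *Ezh1* KO cells. All cells derive from the E14TG2a line and were grown on gelatin in medium with serum, 2i and LIF. The WT and *Ezh2* KO lines served as further reference points. Each line had 2 RNA-seq libraries, so 4 of the 50 samples of the series enter the comparison. The study's reporting form calls its replicates biological in general terms, but no label says that these libraries came from separate cultures, so p-values measure only the spread between libraries. Each genotype was measured in 1 line, and the Y726D mutation cannot be told apart from other differences between these lines. The members were the 16739 genes that lie on autosomes among the 18055 of the normalized count table. Of these, 16146 lie outside chromosome 12 and 12612 passed the filter on low values (a mean normalized count of at least 5 over all 8 libraries). Chromosome 12, with 593 genes of which 461 passed, is described apart. A normalized count is the number of reads on a gene divided by a size factor of the library, and the libraries held 3604123 to 5181553 reads on genes.

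PRC2 is the Polycomb complex that methylates lysine 27 of histone H3 through EZH1 or EZH2, with SUZ12 and EED as further core subunits. In ESCs it sits at CpG-rich promoters of developmental regulators such as the *Hox* genes, which are kept at low expression. Where its methyl marks are lost, the same lysine can be acetylated, a mark of active promoters and enhancers.

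The Y726D mutation lies in exon 19 of the 20 exons of *Ezh2* in the annotation used here, in the coding sequence of the SET domain, the catalytic domain. The reference codon of the mutated tyrosine, in a protein of 746 residues, is shown in capitals below, from the mm9 genome (chr6:47481740-47481759, minus strand, to the end of the exon), because it is the engineered difference in an otherwise transcribed gene.

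Ezh2 mutated codon: gagttgttttttgatTACag

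The targeted genes followed the labels. *Ezh2* had normalized counts of 0.824 and 1.78 in *Ezh1/2* dKO and 422 and 613 in *Ezh2* Y726D (log2 fold change 7.82 ± 0.39 SE, adjusted p = 1.7e-05). The WT libraries had 598 and 546 and the *Ezh2* KO libraries 1.05 and 0.968. The point mutant was transcribed at a level near that of WT, while the deleted line held 1 and 2 reads. Summed reads gave 395-fold (95% interval 135 to 1919) more *Ezh2* in *Ezh2* Y726D, an exact interval for counting error only. *Ezh1* had 14.01 and 20.4 in *Ezh1/2* dKO and 24.1 and 15.7 in *Ezh2* Y726D against 227 and 377 in WT, and the libraries of the 2 lines overlapped (log2 fold change 0.19 ± 0.35 SE, adjusted p = 0.87). The other core subunits did not pass the test, among them *Eed* (896 and 978 in *Ezh1/2* dKO and 1087 and 1252 in *Ezh2* Y726D, log2 fold change 0.32 ± 0.14 SE, adjusted p = 0.39) and *Suz12* (701 and 618 in *Ezh1/2* dKO and 531 and 513 in *Ezh2* Y726D, log2 fold change -0.33 ± 0.15 SE, adjusted p = 0.37). The cells had the ESC markers *Pou5f1* (1328 and 1405 in *Ezh1/2* dKO and 1496 and 1703 in *Ezh2* Y726D) and *Nanog* (854 and 918 in *Ezh1/2* dKO and 806 and 848 in *Ezh2* Y726D), neither of which passed the test. The fibroblast collagen *Col1a1* had 4.12 and 11.5 in *Ezh1/2* dKO and 1.78 and 6.71 in *Ezh2* Y726D. It does not stand for the 11 fibroblast markers listed, 9 of which had values, as others of them were expressed in both lines. Their summed normalized counts were 4783 and 4570 in *Ezh1/2* dKO and 5392 and 4759 in *Ezh2* Y726D.

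Outside chromosome 12, 25 of the 12612 tested genes were higher in *Ezh2* Y726D (0.198% of the genes tested) and 161 were lower (1.28%), which makes 1.47% in either direction, at an adjusted p under 0.1 in limma together with a fold change of 2 or more. With chromosome 12 included, 178 autosomal genes were lower (1.36%) and 203 were called either way (1.55%). Without adjustment, 1597 genes had a p under 0.05 (12.7%). The falls were larger than the rises. Among genes called lower, 106 had a log2 fold change under -2, while *Ezh2* itself was the only gene called higher with one over 2. In 6 of the 161 no read was left in *Ezh2* Y726D and in a further 14 there were 1 to 3 reads over both libraries. edgeR and DESeq2 on the recovered reads both called 24 of the 25 and 147 of the 161. Quantile normalization moved the split between directions to 49 higher and 134 lower, which is 26.8% higher against 13.4%. Each single library weighed on the counts. Without *Ezh1/2* dKO replicate 1 there were 1 higher and 13 lower, and without replicate 2 there were 1 and 9. Without *Ezh2* Y726D replicate 1 there were 60 and 375, and without replicate 2 there were 10 and 101. All 25 and all 161 kept their direction in each of these 4 fits. This outcome was fixed in advance, since the libraries of the 2 lines overlapped for 0 of the called genes. The median of the 12612 log2 fold changes was -0.0039, a value that the size factors keep near 0.

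**Figure D1:**
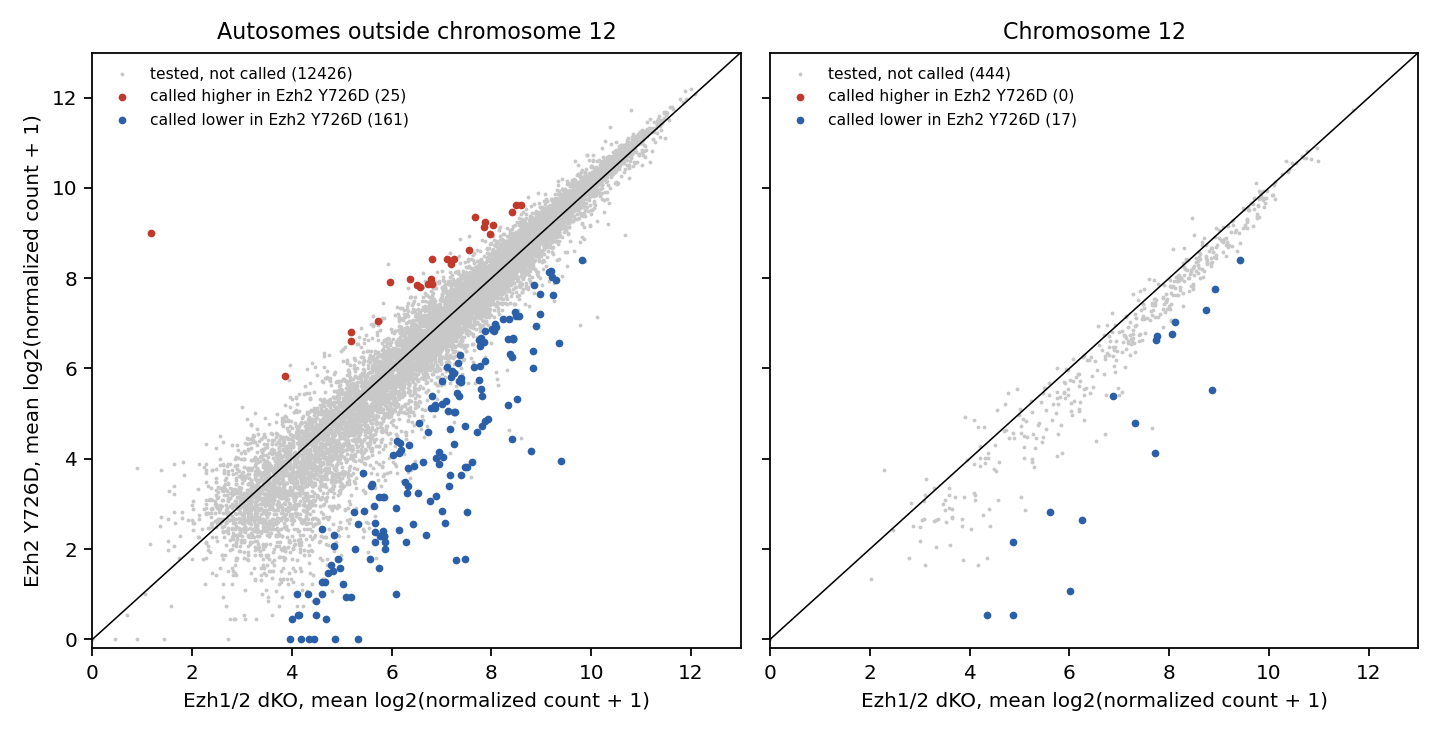
Mean log2(normalized count + 1) over 2 libraries in *Ezh1/2* dKO (x axis) and *Ezh2* Y726D (y axis), with 1 point per tested gene, for the autosomes outside chromosome 12 (left) and chromosome 12 (right). Called genes lie mostly below the diagonal (161 lower against 25 higher on the left, 17 against 0 on the right), several of them at or near 0 in *Ezh2* Y726D.

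Genes higher in *Ezh2* Y726D were mostly well expressed in both lines and changed by modest amounts. *Ddx58*, which encodes the cytosolic RNA sensor RIG-I, had normalized counts of 243 and 171 in *Ezh1/2* dKO and 646 and 663 in *Ezh2* Y726D (log2 fold change 1.68 ± 0.26 SE, adjusted p = 0.022). Its WT libraries, at 426 and 562, lay between the 2 lines. *Exoc3l*, related to a subunit of the exocyst, had 65.1 and 58.6 in *Ezh1/2* dKO and 205 and 282 in *Ezh2* Y726D (log2 fold change 1.94 ± 0.27 SE, adjusted p = 0.016). *Accsl* had 74.2 and 89.7 in *Ezh1/2* dKO and 269 and 238 in *Ezh2* Y726D (log2 fold change 1.62 ± 0.24 SE, adjusted p = 0.018), and WT with 297 and 399.6 was above both. *Zfp280b*, a zinc finger gene, had 226 and 238 in *Ezh1/2* dKO and 547 and 678 in *Ezh2* Y726D (log2 fold change 1.39 ± 0.18 SE, adjusted p = 0.010). These genes were selected for having both *Ezh2* Y726D libraries above both *Ezh1/2* dKO libraries, so that separation is no further evidence. *Ankrd33b*, an ankyrin repeat gene, had 101 and 123 in *Ezh1/2* dKO and 349.5 and 334 in *Ezh2* Y726D (log2 fold change 1.61 ± 0.25 SE, adjusted p = 0.022) and carried a SUZ12 peak within 5 kb of its start in WT and in *Ezh2* Y726D but not in *Ezh1/2* dKO.

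The other genes among the largest rises were signalling, cell cycle and less studied genes. *Cdk6*, a kinase of the G1 phase, had normalized counts of 106 and 77.2 in *Ezh1/2* dKO and 209.5 and 249 in *Ezh2* Y726D (log2 fold change 1.33). *Mapkapk3*, a kinase downstream of p38, had 166 and 115 in *Ezh1/2* dKO and 294 and 397 in *Ezh2* Y726D (log2 fold change 1.30). *Cd68*, a lysosomal membrane glycoprotein, had 37.9 and 32.9 in *Ezh1/2* dKO and 94.5 and 99.6 in *Ezh2* Y726D (log2 fold change 1.43). *Def6* had 45.3 and 27.5 in *Ezh1/2* dKO and 129 and 95.1 in *Ezh2* Y726D (log2 fold change 1.62). *Necab2*, a calcium-binding protein gene, had 61.0 and 44.4 in *Ezh1/2* dKO and 132 and 132 in *Ezh2* Y726D (log2 fold change 1.33). *1700123I01Rik*, without a named function, had the lowest counts of the group, 14.8 and 12.4 in *Ezh1/2* dKO and 68.7 and 45.9 in *Ezh2* Y726D (log2 fold change 1.97). *Bmp4*, a secreted growth factor of the TGF-beta family, also rose, with 343 and 334 in *Ezh1/2* dKO and 736 and 688 in *Ezh2* Y726D (log2 fold change 1.07 ± 0.15 SE, adjusted p = 0.016), and is named here after its value was seen.

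Genes lower in *Ezh2* Y726D included several that were clearly expressed in *Ezh1/2* dKO and nearly silent in the other line. *P2rx3*, an ATP-gated ion channel, had normalized counts of 611 and 737 in *Ezh1/2* dKO and 30.3 and 6.71 in *Ezh2* Y726D (log2 fold change -5.43 ± 0.50 SE, adjusted p = 0.0024), and WT had 791 and 763. *Serpinf1*, which encodes the secreted factor PEDF, had 142 and 218 in *Ezh1/2* dKO and 10.7 and 0 in *Ezh2* Y726D (log2 fold change -5.69 ± 0.88 SE, adjusted p = 0.022). *Pdha2*, the testis form of a pyruvate dehydrogenase subunit, had 152 and 158 in *Ezh1/2* dKO and 4.46 and 1.12 in *Ezh2* Y726D (log2 fold change -5.52 ± 0.51 SE, adjusted p = 0.0024). In summed reads the falls of these 3 genes were 33.8-fold (95% interval 24.7 to 47.5), 30.0-fold (95% interval 17.0 to 58.5) and 52.1-fold (95% interval 23.7 to 143), with counting error only in the intervals. *Cyp2b23*, a cytochrome P450 gene, had 203 and 163 in *Ezh1/2* dKO and 8.02 and 4.47 in *Ezh2* Y726D (log2 fold change -4.70 ± 0.45 SE, adjusted p = 0.0029). *Nnmt*, which methylates nicotinamide, had 84.9 and 210.4 in *Ezh1/2* dKO and 4.46 and 5.59 in *Ezh2* Y726D (log2 fold change -4.49 ± 0.57 SE, adjusted p = 0.010). *Pramel7*, of a family expressed in germ cells and early embryos, had 78.3 and 135 in *Ezh1/2* dKO and 3.57 and 4.47 in *Ezh2* Y726D (log2 fold change -4.38 ± 0.91 SE, adjusted p = 0.073). WT lay above *Ezh1/2* dKO for *Serpinf1* (443 and 287). It lay below *Ezh1/2* dKO for *Pdha2* (41.4 and 26.0), *Cyp2b23* (148 and 56.8), *Nnmt* (25.3 and 36.6) and *Pramel7* (21.3 and 4.81).

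Several of the largest falls were in genes without a read in *Ezh2* Y726D, for which only a bound can be given. *Stk33*, a kinase gene, had normalized counts of 41.2 and 37.3 in *Ezh1/2* dKO and was at least 26.4-fold lower, set against a floor of 3 reads over both libraries. *Kng2*, a kininogen gene, had 23.1 and 34.6 in *Ezh1/2* dKO and was at least 19.2-fold lower. The highest normalized count of *Kng2* in any other line was 3.85, in WT replicate 2. It therefore passed the filter on low values only through *Ezh1/2* dKO, and its fall is in part built in by that filter. *Fgf21*, a metabolic hormone, had 15.7 and 27.5 in *Ezh1/2* dKO and was at least 14.4-fold lower. *Mbl2*, a lectin of the complement system, had 17.3 and 21.3 in *Ezh1/2* dKO and was at least 12.9-fold lower. All 4 were listed at 0 in both *Ezh2* Y726D libraries. *Rtp2*, a receptor transporter gene, was left with 1 read per library in *Ezh2* Y726D against 57.7 and 78.1 in *Ezh1/2* dKO, a ratio of 68.1-fold (95% interval 18.5 to 567).

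**Figure D2:**
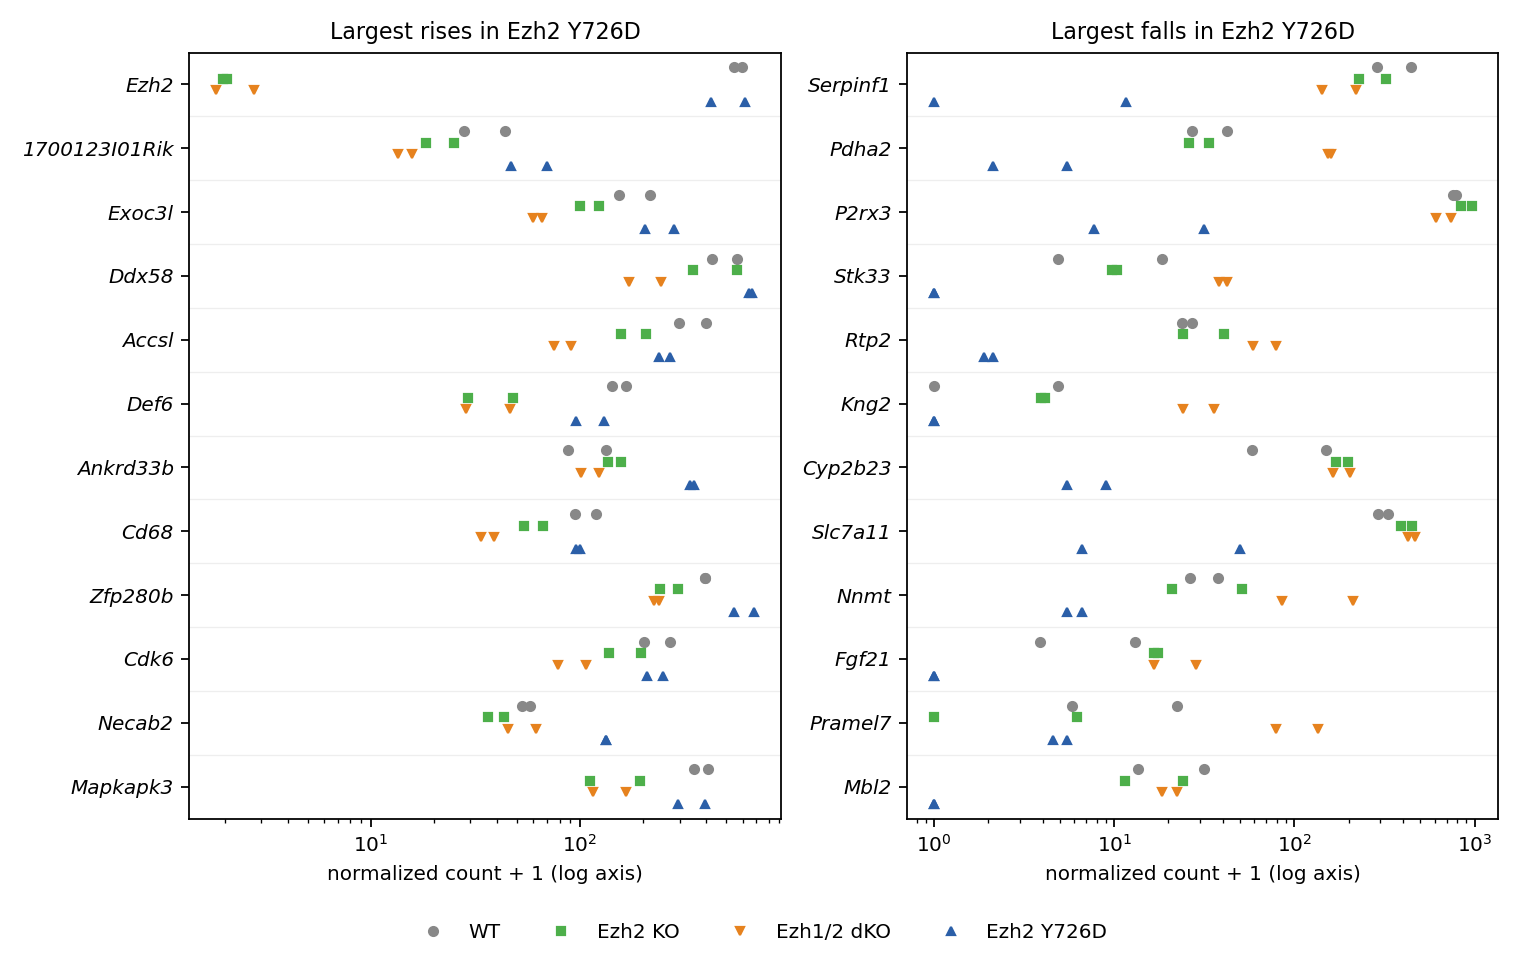
Normalized counts plus 1 (log x axis) of the 12 genes with the largest rise (left) and the 12 with the largest fall (right) outside chromosome 12, with 1 point per library and 2 libraries for each of the 4 lines (WT grey, *Ezh2* KO green, *Ezh1/2* dKO orange, *Ezh2* Y726D blue). The *Ezh2* Y726D libraries lie apart from those of *Ezh1/2* dKO in every row, with *Stk33* at 0 in *Ezh2* Y726D, and the genes were selected for this separation.

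The 25 gene lists gave further groups, chosen with earlier results of these data known. The clearest count was that of genes of the 2-cell stage, which mark a rare ESC state resembling the early embryo. Of 9 tested members, 5 were called lower and 0 higher, against 1.36% called lower over all autosomal genes tested. Both *Ezh2* Y726D libraries were below both of *Ezh1/2* dKO for all 9 (23.9% over all genes tested outside chromosome 12). The median was -3.14 against -0.01 over all autosomal genes. Summed over the list, normalized counts were 1068 and 1554 in *Ezh1/2* dKO and 114 and 208 in *Ezh2* Y726D. The WT libraries, at 1083 and 428, overlapped the *Ezh1/2* dKO level, whereas the *Ezh2* KO libraries, at 40.8 and 35.8, were lower than both mutants compared here. *Zscan4c*, a zinc finger gene, had normalized counts of 206 and 265 in *Ezh1/2* dKO and 17.8 and 42.5 in *Ezh2* Y726D (log2 fold change -3.03 ± 0.48 SE, adjusted p = 0.022). *Zscan4d* had 254 and 412 in *Ezh1/2* dKO and 21.4 and 59.3 in *Ezh2* Y726D (log2 fold change -3.14 ± 0.54 SE, adjusted p = 0.035). *Usp17la*, a deubiquitinase gene, had 165 and 227 in *Ezh1/2* dKO and 15.2 and 13.4 in *Ezh2* Y726D (log2 fold change -3.67 ± 0.52 SE, adjusted p = 0.016). *Usp17lc* and *Tdpoz3* were also called, at log2 fold changes of -3.51 and -3.71. *Zscan4f*, *Usp17lb*, *Zfp352* and *Tdpoz4* did not pass, at -2.43, -4.01, -1.61 and -1.77. Without *Ezh1/2* dKO replicate 1, and likewise without replicate 2, 0 of the 9 were called. These genes form multi-copy families. Reads that match near-identical copies could be assigned to 1 copy or left uncounted, so values of single copies are uncertain. As bulk libraries were used, fewer cells in that state and less RNA per cell cannot be told apart.

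Transcripts of these copies, on which reads are counted, were not compared. The promoters of *Zscan4c* and *Zscan4d* show how alike these genes are in the sequence before the start. They are given with those of *Dppa3*, *Zfp280b* and *Ddx58*, called genes of either direction, as the 250 bases before the annotated start on the gene's strand (mm9), with CpG dinucleotides in capitals. The windows are chr7:11590821-11591070, plus strand, chr7:11751498-11751747, minus strand, chr6:122576178-122576427, plus strand, chr10:75495107-75495356, plus strand and chr4:40186862-40187111, minus strand. The 2 *Zscan4* windows, shifted by 34 bases, were the same at 210 of 216 aligned positions (97.2%), and hold 3 CpGs each, against 6 in *Dppa3*, 12 in *Ddx58* and 19 in *Zfp280b*.

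Zscan4c: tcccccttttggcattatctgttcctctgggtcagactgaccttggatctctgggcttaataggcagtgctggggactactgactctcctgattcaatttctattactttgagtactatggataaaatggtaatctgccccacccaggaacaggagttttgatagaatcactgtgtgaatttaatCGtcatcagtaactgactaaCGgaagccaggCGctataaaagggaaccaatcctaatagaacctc
Zscan4d: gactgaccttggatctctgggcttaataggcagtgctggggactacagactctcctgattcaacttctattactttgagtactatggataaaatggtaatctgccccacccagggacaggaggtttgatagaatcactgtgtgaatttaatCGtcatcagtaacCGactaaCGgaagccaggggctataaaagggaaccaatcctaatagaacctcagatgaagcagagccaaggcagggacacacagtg
Dppa3: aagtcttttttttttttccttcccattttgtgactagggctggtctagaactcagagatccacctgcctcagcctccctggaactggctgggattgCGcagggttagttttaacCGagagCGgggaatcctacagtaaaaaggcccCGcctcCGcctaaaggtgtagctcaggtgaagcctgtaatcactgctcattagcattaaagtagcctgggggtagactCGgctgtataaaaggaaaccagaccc
Zfp280b: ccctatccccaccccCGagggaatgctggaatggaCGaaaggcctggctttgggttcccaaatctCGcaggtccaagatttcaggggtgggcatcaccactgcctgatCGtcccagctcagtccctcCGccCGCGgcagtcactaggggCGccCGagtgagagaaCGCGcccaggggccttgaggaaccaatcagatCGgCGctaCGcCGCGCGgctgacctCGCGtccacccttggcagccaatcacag
Ddx58: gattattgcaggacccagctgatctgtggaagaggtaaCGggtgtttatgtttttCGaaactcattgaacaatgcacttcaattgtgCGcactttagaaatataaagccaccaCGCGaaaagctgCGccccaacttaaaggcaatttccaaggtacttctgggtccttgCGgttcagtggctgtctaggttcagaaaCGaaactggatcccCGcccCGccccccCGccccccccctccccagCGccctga

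The called members of the other lists were few. *Dppa3*, a maternal-effect gene of naive ESCs and germ cells, had normalized counts of 283 and 414 in *Ezh1/2* dKO and 21.4 and 20.1 in *Ezh2* Y726D (log2 fold change -3.98 ± 0.33 SE, adjusted p = 0.0015), against 176 and 106 in WT. It was the only called gene among 20 tested naive pluripotency genes, 10 of which were positive and 10 negative. *Slc7a11*, the cystine transporter induced by ATF4, had 464 and 425 in *Ezh1/2* dKO and 49.0 and 5.59 in *Ezh2* Y726D (log2 fold change -4.62 ± 0.70 SE, adjusted p = 0.021). It was the 1 called gene of 10 of the integrated stress response, all of which were negative with a median of -0.51. Over all autosomal genes tested, 6747 of 13073 were negative. With edgeR and with DESeq2, 9 of the 10 stress response genes were negative, with a median of -0.34. In *Ezh2* Y726D, replicate 2 was the lower library for all 10 of these genes, for example *Chac1* (1105 and 1117 in *Ezh1/2* dKO and 481 and 40.3 in *Ezh2* Y726D, log2 fold change -2.98, not called). *Plagl1*, an imprinted zinc finger gene, had 88.2 and 69.3 in *Ezh1/2* dKO and 6.24 and 11.2 in *Ezh2* Y726D (log2 fold change -3.08 ± 0.39 SE, adjusted p = 0.010) and was the 1 called of 21 imprinted genes. Of 11 genes of glycolysis and hypoxia, *Ddit4* (209 and 232 in *Ezh1/2* dKO and 51.7 and 40.3 in *Ezh2* Y726D) and *Vegfa* (142 and 184 in *Ezh1/2* dKO and 62.4 and 43.6 in *Ezh2* Y726D) fell, and *Pdk1* (271 and 231 in *Ezh1/2* dKO and 460.1 and 558 in *Ezh2* Y726D) rose, at log2 fold changes of -2.24, -1.61 and 1.02. Of 77 ribosomal protein genes, *Rpl39l*, a paralog used in testis, was called lower (473 and 526 in *Ezh1/2* dKO and 182 and 217 in *Ezh2* Y726D, log2 fold change -1.32 ± 0.20 SE, adjusted p = 0.020). Of all 77, 74 were positive and 3, among them *Rpl39l*, negative (8 under quantile normalization). Their median was 0.17, and that of all tested genes with mean counts over 1000 was 0.15. Both *Ezh2* Y726D libraries were above both of *Ezh1/2* dKO for 69 of the 77, against 23.0% of all genes tested outside chromosome 12. That 23.0% covers genes of all levels, and the share among genes as highly expressed was not taken.

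The lists without a call were the larger number. In 18 of the 25 lists limma called 0 genes, with medians from -0.80 to 0.66. Of their 170 list places, 23 had an unadjusted p under 0.05, near the share over all autosomal genes tested (1714 of 13073, 13.1%). Among germline genes 11 of 12 tested were negative (9 of 12 under quantile normalization) with a median of -0.80, and limma called 0 while edgeR and DESeq2 each called 2 lower. The 9 FGF-ERK targets had a median of 0.61, with *Spry4* at 47.8 and 75.5 in *Ezh1/2* dKO and 142 and 701 in *Ezh2* Y726D and *Etv4* at 36.3 and 83.5 in *Ezh1/2* dKO and 42.8 and 436 in *Ezh2* Y726D, so that replicate 2 of *Ezh2* Y726D was higher than the rest. Fibroblast markers had 3 tested members and 0 calls.

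The 15 PcG loci that the study examined, genes under Polycomb control in ESCs, had 11 tested members, and 0 passed limma, with 0 at an unadjusted p under 0.05, 0 calls in edgeR and 1 higher call in DESeq2. They were 6 positive and 5 negative, with a median of 0.36. Since the study picked them with these cells in view, they are no independent evidence of a direction. Their summed normalized counts were 143 and 92.4 in WT, 571 and 574 in *Ezh1/2* dKO, and 830 and 1403 in *Ezh2* Y726D. *Hoxa10*, a posterior *Hox* gene, was near silent in WT (2.67 and 0) and had normalized counts of 226 and 223 in *Ezh1/2* dKO and 424 and 493 in *Ezh2* Y726D (log2 fold change 1.02 ± 0.83 SE, adjusted p = 0.67). In limma the SE is estimated from the spread within all 4 lines. For *Hoxa10* that includes WT and *Ezh2* KO (5.23 and 0), whose few reads differ widely on the log scale. The SE of genes near silent in WT thus does not describe the 2 compared lines alone. *Hoxa7* had 65.1 and 85.2 in *Ezh1/2* dKO and 106 and 232 in *Ezh2* Y726D (log2 fold change 1.06 ± 0.49 SE, adjusted p = 0.40), and *Hoxa11* had 26.4 and 17.8 in *Ezh1/2* dKO and 44.6 and 71.6 in *Ezh2* Y726D (log2 fold change 1.34 ± 0.69 SE, adjusted p = 0.46). The *Ezh2* Y726D libraries were above those of *Ezh1/2* dKO for these 3 *Hoxa* genes and for *Wnt5a*, a signalling ligand (50.3 and 31.1 in *Ezh1/2* dKO and 69.5 and 69.4 in *Ezh2* Y726D, log2 fold change 0.80). None of them passed limma or edgeR, while *Hoxa10* was the 1 higher call in DESeq2 (log2 fold change 1.03, adjusted p = 0.026). *Cdx2*, a trophectoderm regulator, was high in replicate 2 of *Ezh2* Y726D only, with 28.0 and 83.5 in *Ezh1/2* dKO and 33.0 and 439.7 in *Ezh2* Y726D. *Olig3*, *Hoxb7*, *Hoxd9*, *Fgfr3*, *Mmp25* and *Pax9* (on chromosome 12) had log2 fold changes of 0.36, -0.61, -0.97, -0.02, -1.08 and -0.74, and *Hoxb7*, *Hoxd9*, *Fgfr3* and *Cdx2* changed sign when 1 library was left out. *Foxd4*, *Hmx3*, *Lhx5* and *Six2* were below the filter. Of 20 tested *Hox* genes 0 were called by limma or edgeR and 2 higher by DESeq2, 1 had an unadjusted p under 0.05, and their median of -0.22 turned to 0.15 under quantile normalization.

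**Figure D3:**
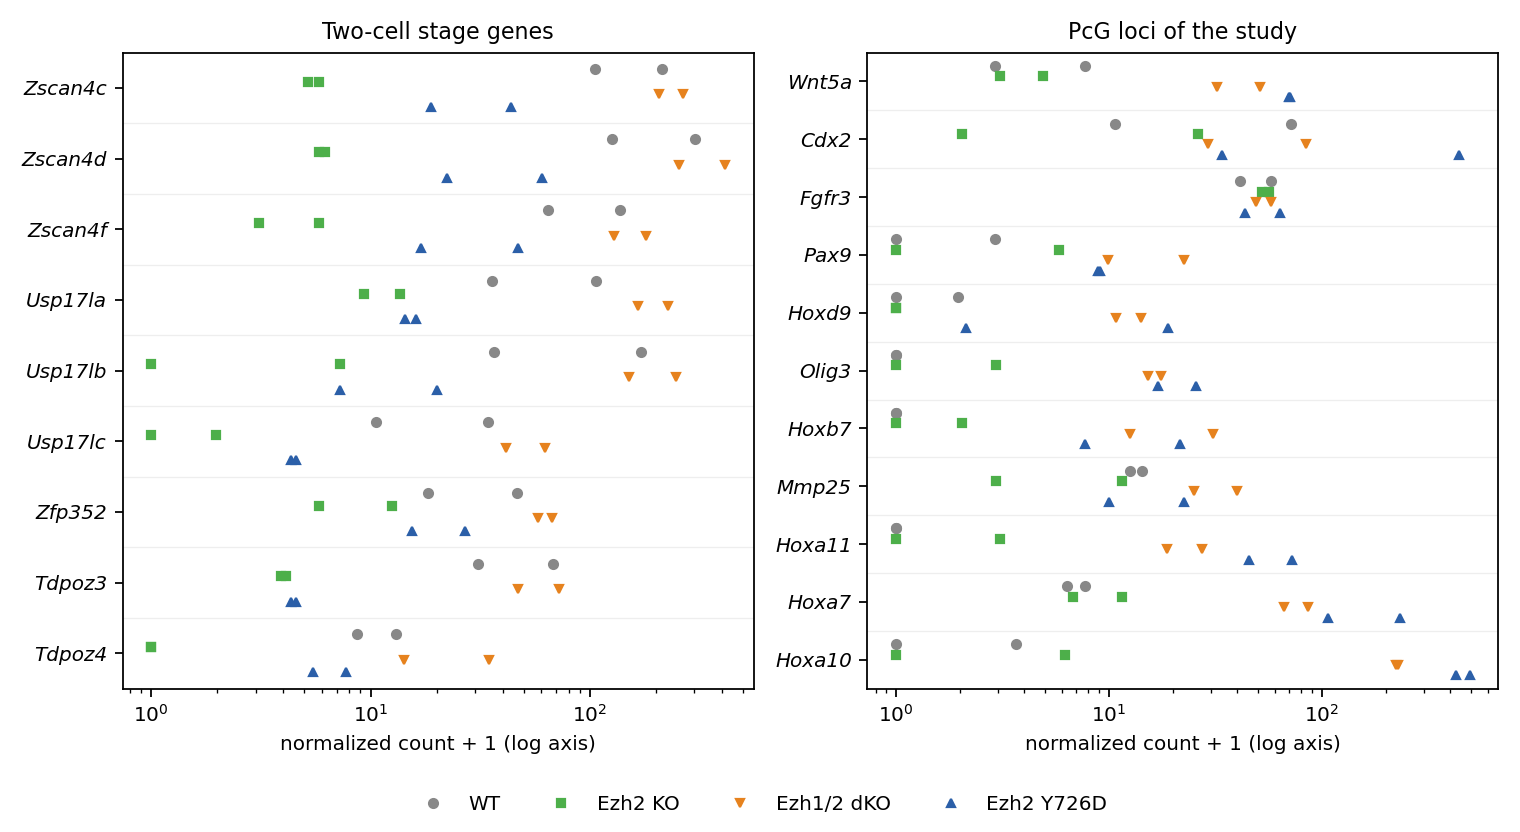
Normalized counts plus 1 (log x axis) of the 9 tested genes of the 2-cell stage (left) and the 11 tested PcG loci (right), with 1 point per library and 2 libraries for each of the 4 lines (WT grey, *Ezh2* KO green, *Ezh1/2* dKO orange, *Ezh2* Y726D blue). The 2-cell stage genes are lower in *Ezh2* Y726D than in *Ezh1/2* dKO in all 9 rows, while the PcG loci, above WT in most rows, show rises and falls.

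Promoters were next classed by SUZ12 peaks within 5 kb of a start in the WT, *Ezh2* Y726D and *Ezh1/2* dKO ChIP-seq peak lists, with 5404, 3366 and 317 peaks. There was 1 library per line, the SUZ12 sample name gives the Y726D mutation alone, with no mention of *Ezh1*, and was taken as the same line, and the depth of each list is not known. Among 955 tested genes with a SUZ12 peak in WT and *Ezh2* Y726D but not in *Ezh1/2* dKO, 2 were called higher and 20 lower (2.09%), and the median log2 fold change was -0.24. Among 802 genes with a peak in WT only, 5 were higher and 13 lower, with a median of -0.12. The 10512 genes without a peak had 17 higher and 127 lower (1.21%), with a median of 0.01. Genes with peaks were less expressed than genes without. Within levels of expression, the median of the bound class was -0.42 against -0.36 over all genes for mean counts of 5 to 20, -0.28 against -0.18 for 20 to 100, and 0.01 against 0.04 for 100 to 1000. The share called lower was 0.988% of the bound class against 1.49% of all genes at 5 to 20, and 2.24% against 2.51% at 20 to 100. At 100 to 1000 it was 4.28% (8 of 187 genes) against 0.875%. Under quantile normalization the median of the bound class turned to 0.022, and the difference between the bound and unbound classes, -0.26 as reported, was -0.014.

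Both lines were also set against WT, and as these comparisons share the WT libraries their shares are given side by side. In *Ezh1/2* dKO, 540 of the 955 genes with SUZ12 in WT and *Ezh2* Y726D lay above WT in both libraries (56.5%), and in *Ezh2* Y726D 381 did (39.9%). Over all tested genes these shares were 27.8% and 19.5%. Genes with a SUZ12 peak in WT only had shares of 57.6% and 41.1%.

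H3K27ac peaks at promoters were measured in both lines, with 40829 peaks in *Ezh2* Y726D and 17618 in *Ezh1/2* dKO from 1 library each, of unknown depth. Of the 25 genes called higher, 22 had an H3K27ac peak within 5 kb in *Ezh2* Y726D (88.0%, Wilson 95% interval 70.0% to 95.8%) and 15 had one in *Ezh1/2* dKO (60.0%). Of the 161 called lower, 58 (36.0%, 29.0% to 43.7%) and 52 (32.3%) did. The shares over all tested genes were 73.4% and 46.4%. Of 141 tested genes with a peak in *Ezh1/2* dKO only, 7 were lower (4.96%, against 1.28% of all tested) and 0 higher, with a median of -0.13. Of 3542 with a peak in *Ezh2* Y726D only, 13 were lower (0.367%) and 7 higher, with a median of 0.01. Of 3219 genes with a peak in neither line, 96 were lower (2.98%) and 3 higher. Genes with a peak in neither line thus made up 96 of the 161 genes lower in *Ezh2* Y726D and 3219 of the 12612 tested, and were also less expressed.

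Promoter CpG number differed between the called groups. In the 250 bases before the start, genes called lower had a median of 5 CpGs, genes called higher 13 and all tested genes 14. At most 5 CpGs were found in 81 of 161 genes called lower (50.3%), in 4 of 25 called higher (16.0%) and in 18.8% of all tested. Genes called lower were also less expressed than average, at a median mean count of 62.5 against 172 over all tested. Within levels of expression the share called lower stayed higher for genes with at most 5 CpGs. It was 2.65% against 0.760% at mean counts of 5 to 20, 6.07% against 1.44% at 20 to 100, and 2.45% against 0.658% at 100 to 1000. Above 1000 no gene was called lower in either class. The part of sequence or of other features that go with CpG number was not tested.

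**Figure D4:**
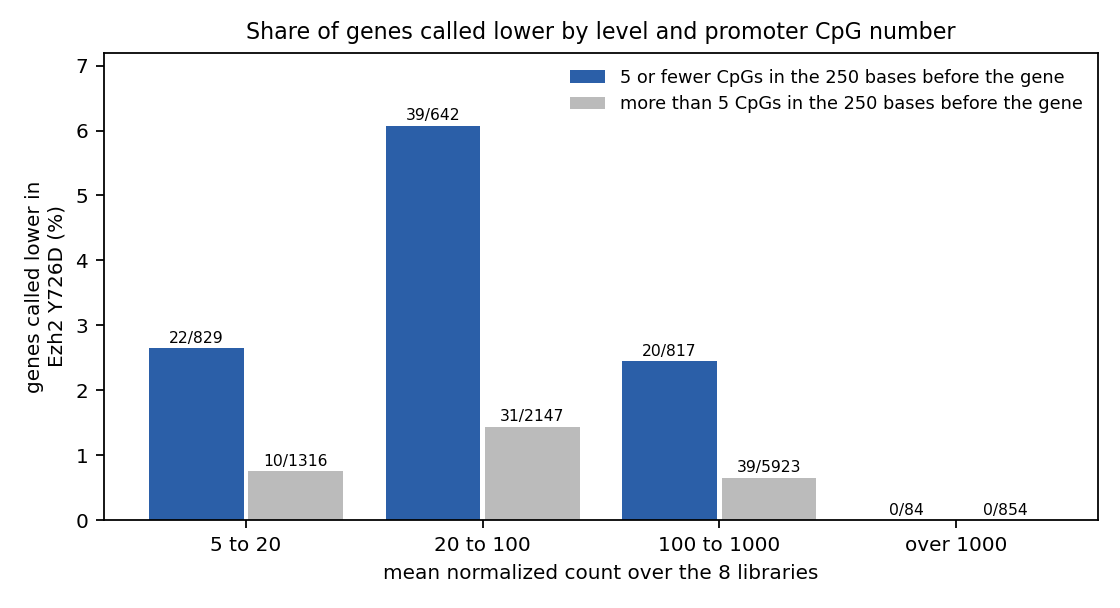
Share of tested autosomal genes outside chromosome 12 called lower in *Ezh2* Y726D (y axis, %), by mean normalized count over the 8 libraries (x axis) and by whether the 250 bases before the gene hold 5 or fewer CpGs (dark bars) or more (light bars), with the numbers of genes above the bars. The dark bars are taller at each level below 1000, with 6.07% against 1.44% at mean counts of 20 to 100.

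The WT libraries, which entered the estimate of spread and the filter but not the contrast, lay nearer *Ezh2* Y726D for 19 of the 25 genes called higher and nearer *Ezh1/2* dKO for 6. *Ezh2* KO gave 6 and 19. For genes called lower, WT lay nearer *Ezh2* Y726D for 69 and nearer *Ezh1/2* dKO for 92 of 161, and *Ezh2* KO gave 76 and 85. The same shares over all tested genes were not taken, so these counts have no background to be read against. Median normalized counts of the genes called lower were 50.6 in WT, 17.3 in *Ezh2* Y726D and 127 in *Ezh1/2* dKO.

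Chromosome 12 was lower in *Ezh2* Y726D along its whole length. Of its 461 tested genes, 387 (83.9%) had a negative log2 fold change, and the median was -0.36, a difference of -0.36 from the other autosomes. The next lowest autosome was chromosome 4 with -0.12. The median of chromosome 12 minus that of the other autosomes, on the log2(normalized count + 1) scale and relative to the mean over libraries, was 0.15 and 0.08 in the *Ezh1/2* dKO libraries and -0.19 and -0.25 in those of *Ezh2* Y726D. WT had 0.04 and 0.07 and *Ezh2* KO 0.09 and 0.05, so only the *Ezh2* Y726D libraries were negative. An exact two-sided permutation test over the 4 libraries gave p = 0.333, the smallest value this design allows. Both libraries of *Ezh2* Y726D were below both of *Ezh1/2* dKO for 259 genes (56.2%) and above for 19 (4.12%), against 23.9% and 23.0% elsewhere. The fall was similar along the chromosome, with medians of -0.25 to -0.39 in the 6 windows of 20 Mb from the start to 120 Mb. A further chromosome differed as a whole: summed over the 7 genes of the Y chromosome, normalized counts were 1798 and 1900 in *Ezh1/2* dKO and 23.2 and 23.5 in *Ezh2* Y726D. The copy number of these chromosomes in the lines was not tested.

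**Figure D5:**
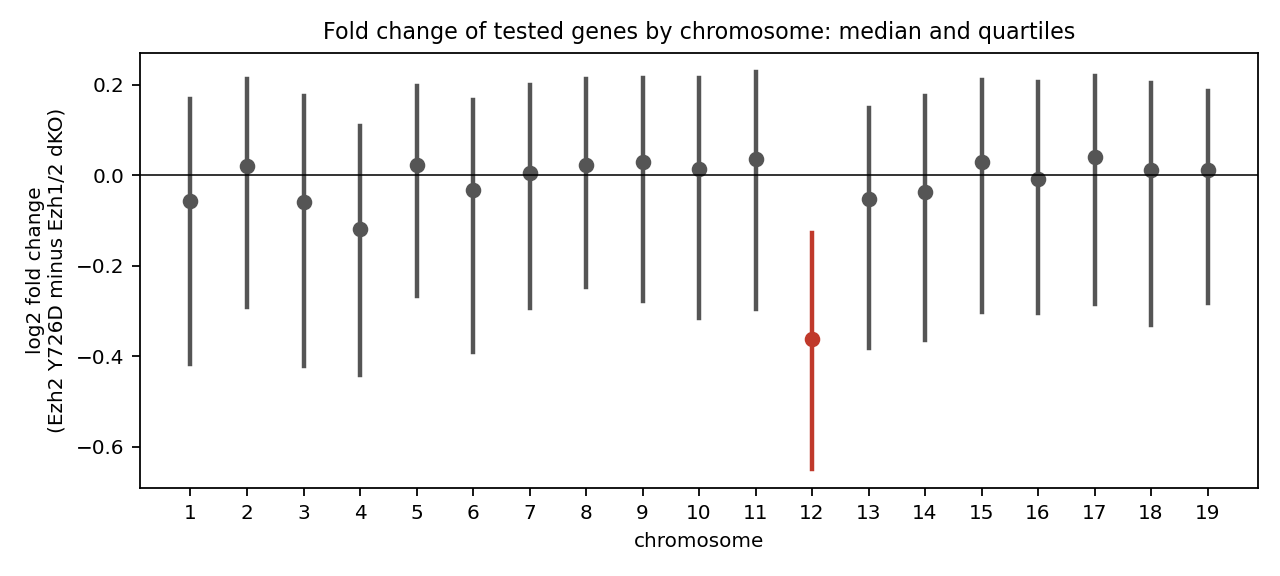
Median (point) and quartiles (bar) of the log2 fold change of *Ezh2* Y726D against *Ezh1/2* dKO over the tested genes of each autosome (x axis). Chromosome 12, in red, lies at -0.36, and the other autosomes between -0.12 and 0.04.

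Of the chromosome 12 genes, 0 were called higher (0.00%) and 17 lower (3.69%), with 117 at an unadjusted p under 0.05. The largest falls were *Prkch*, a protein kinase C, with normalized counts of 44.5 and 90.6 in *Ezh1/2* dKO and 0 and 3.36 in *Ezh2* Y726D (log2 fold change -4.95 ± 0.78 SE, adjusted p = 0.022), and *Serpina3m*, a serine protease inhibitor, with 24.7 and 32.0 in *Ezh1/2* dKO and 0 and 1.12 in *Ezh2* Y726D (log2 fold change -4.32 ± 0.76 SE, adjusted p = 0.038). *Fbln5*, an extracellular matrix protein, had 150.0 and 293 in *Ezh1/2* dKO and 22.3 and 12.3 in *Ezh2* Y726D (log2 fold change -3.58 ± 0.41 SE, adjusted p = 0.0072), and *Abcb5*, a transporter, had 63.5 and 88.8 in *Ezh1/2* dKO and 6.24 and 4.47 in *Ezh2* Y726D (log2 fold change -3.60 ± 0.78 SE, adjusted p = 0.081). *Asb2*, of the ubiquitin ligase system, had 16.5 and 23.1 in *Ezh1/2* dKO and 0 and 1.12 in *Ezh2* Y726D (log2 fold change -3.82 ± 0.88 SE, adjusted p = 0.095). In WT, *Prkch* had 5.34 and 4.81, *Serpina3m* 9.34 and 1.93 and *Asb2* 2.67 and 1.93, well below *Ezh1/2* dKO. These 3 genes passed the filter on low values only through *Ezh1/2* dKO, so their falls are in part built in by the filter. For *Fbln5* (70.7 and 107) and *Abcb5* (45.4 and 7.70), WT lay between the lines compared. With 1 to 3 reads left in *Ezh2* Y726D, the ratios of summed reads were 44.8-fold (95% interval 15 to 219.6) for *Prkch*, 56.9-fold (95% interval 9.86 to 2279) for *Serpina3m* and 39.6-fold (95% interval 6.77 to 1599) for *Asb2*. Others fell less, such as *Iah1*, an esterase, with 403 and 446 in *Ezh1/2* dKO and 185 and 129.8 in *Ezh2* Y726D (log2 fold change -1.44 ± 0.19 SE, adjusted p = 0.014). When the chromosome median was subtracted from every gene, 6 were called lower and 1 higher. The count also rested on single libraries, with 1 and 0 called lower without *Ezh1/2* dKO replicate 1 or 2, and 30 and 8 without *Ezh2* Y726D replicate 1 or 2. Against this background the imprinted maternal RNA *Meg3* was higher in *Ezh2* Y726D in both libraries, with 361 and 345 in *Ezh1/2* dKO and 612 and 687 in *Ezh2* Y726D (log2 fold change 0.87, not called).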

How the data were processed

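RNA was measured by SMART-seq2, a poly-A method for small inputs. The authors used TopHat for alignment to mm9, Picard for duplicates, HTSeq-count without strand for counting on RefSeq genes, and DESeq2 for normalization. The deposited values are a signal per gene and library, namely normalized counts, reads divided by a size factor. Whole reads were recovered for 100% of the values in each library (tolerance 0.001). Overlapping and multi-copy genes could share reads. Library totals were 3604123 to 5181553 reads, which limits the precision of genes with few reads. The deposited ChIP-seq peak lists, made by the authors with Bowtie and MACS2 on each library, give a −log10 p for each peak, and peaks at a p of at most 1e-10 were used. Tables with the authors' own fold changes and p-values against WT were not used.

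The test was limma 3.58.1 in R 4.3.3, a linear fit with a trend on log2(normalized count + 1) over all 8 libraries and genes averaging 5 normalized counts or more, which leaves 4 residual degrees of freedom, and Benjamini-Hochberg adjustment over 13872 genes. limma was used as the files hold normalized values. The pseudocount lowers fold changes of genes with few reads. As alternatives, the recovered reads were given to edgeR 4.0.16 and to DESeq2 1.42.0, besides other pseudocounts, filters, scalings, thresholds, left-out libraries and a replicate block. On simulated data with 200 genes changed 4-fold among 13872, 186 were recovered (93%), with 13 false calls. The simulation gave every gene and library the same relative spread and let no single library deviate as a whole. Its shares therefore do not carry over to the measured libraries.

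Gene positions are those of GENCODE on mm9, to which 16570 genes were matched by symbol and 854 by synonym, with 631 unmatched. Promoters are the 250 bases before the annotated start. Folds from reads have exact Clopper-Pearson 95% intervals, and a gene without reads is set to a floor of 3 reads over the group. The intervals and floors cover counting error only. Work in Python 3.11.15 used numpy 2.4.6, scipy 1.17.1, pandas 2.3.3 and matplotlib 3.10.9. The members and gene lists were chosen with earlier results of these data known. The genes named are *Ezh1*, *Ezh2*, the PcG loci, called list members, the 12 largest rises and falls outside chromosome 12 and the 5 on it, among genes whose libraries do not overlap. Other genes were named after their values were seen.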

Additional observations from a re-analysis of the deposited data

How the results depend on the processing

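Counts of called genes depended on the setting, while directions mostly did not. For called genes, leaving out 1 library could not change the direction, since their libraries did not overlap between the lines. With 1 library left out, genes called higher outside chromosome 12 ranged from 1 to 60 (25 with all libraries), genes called lower from 9 to 375 (161), genes called lower on chromosome 12 from 0 to 30 (17) and called genes of the 2-cell stage from 0 to 5 (5). Each of the 4 libraries moved the counts outside chromosome 12 by over 1.5 times. The log2 fold change ranged from 7.52 to 8.13 for *Ezh2* and from -0.11 to 0.48 for *Ezh1*, which is at its deletion background in both lines. The chromosome 12 median ranged from -0.38 to -0.30, the SUZ12 class difference (genes bound in WT and *Ezh2* Y726D minus unbound) from -0.27 to -0.19, and the H3K27ac class difference (peak in *Ezh2* Y726D only minus in *Ezh1/2* dKO only) from 0.14 to 0.18. A fit on the 4 libraries alone called 99 lower outside chromosome 12 and 11 on it, and an adjusted p under 0.05 called 9 higher, 71 lower and 7 lower on chromosome 12. Without a filter 16 were higher, quantile normalization called 49 and DESeq2 53. On chromosome 12, 11 were lower with a pseudocount of 0.5, and 10 without a filter or with a mean of at least 20. Subtracting its median (to 0.00) left 6 lower and 1 higher, and quantile normalization gave a median of -0.31.

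The SUZ12 difference, -0.26 as reported, was -0.21 with a pseudocount of 5, -0.16 with a mean of at least 20, -0.014 under quantile normalization, -0.22 with edgeR and -0.21 with peaks at a p of at most 1e-20. The H3K27ac difference, 0.14 as reported, was 0.087 with a mean of at least 20, 0.17 under quantile normalization, 0.15 with edgeR and with DESeq2, and 0.12 with peaks within 1 kb. Some class medians changed sign: the unbound class, 0.015 as reported, was -0.012 without a filter, the *Ezh2* Y726D-only H3K27ac class -0.0070 without a filter, -0.0042 with TMM factors and between -0.00077 and 0.019 with 1 library left out, and under quantile normalization the SUZ12 classes turned from -0.24 to 0.022 (WT and *Ezh2* Y726D) and from -0.12 to 0.046 (WT only). Single genes that changed sign were *Fgfr3* (0.28 under quantile normalization, 0.00080 with edgeR, 0.0084 with DESeq2, -0.29 to 0.26 with 1 library left out, positive without *Ezh1/2* dKO replicate 2 or *Ezh2* Y726D replicate 2), *Hoxb7* (-1.35 to 0.13, positive without *Ezh1/2* dKO replicate 1 or *Ezh2* Y726D replicate 2), *Cdx2* (-0.54 to 3.15, negative without *Ezh2* Y726D replicate 2) and *Hoxd9* (-2.54 to 0.61, positive without *Ezh2* Y726D replicate 2), and *Ezh1* (-0.07 and -0.11 without *Ezh1/2* dKO replicate 1 or *Ezh2* Y726D replicate 1). The cause of these changes was not tested.

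Replicate numbers are shared across lines, and deviations of same-numbered libraries correlated at 0.29 between the lines compared, at 0.22 and 0.24 between *Ezh2* KO and these lines, and between -0.41 and -0.065 for WT with the others. Not every pair was above 0.1 and no label ties the numbers to a batch, so they were not taken as pairs. With the replicate block 20 genes were called higher (17 of the 25 remained) and 113 lower (108 of the 161) outside chromosome 12, and 11 lower on it. Every comparison rests on 2 libraries of 1 line per genotype, and the ChIP-seq classes on 1 library each of unknown depth. Genes with few reads have wide intervals, and a call missed at this depth does not show that the lines are alike.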

Other observations

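The multi-copy families of the 2-cell stage genes have further members, and *Pramel* and *Pramef* form another such family. They were grouped after their values were seen, and no test was made on the groups. *Dux*, the homeobox gene that activates the 2-cell programme, had normalized counts of 48.6 and 63.0 in *Ezh1/2* dKO and 5.35 and 3.36 in *Ezh2* Y726D (log2 fold change -3.42). Of 5 *Zscan4* genes 4 were called lower, of 5 *Usp17l* genes 3, of 2 tested *Tdpoz* genes 1, and of 7 tested *Pramel* and *Pramef* genes 3, and all 19 were negative. Over all autosomal genes tested, 1.36% were called lower. Of these 19, 8 are also in the list of 2-cell stage genes. How many reads of near-identical copies were assigned to another copy or left uncounted was not tested. On chromosome 7, 4 called *Zscan4* genes lie together, and on chromosome 4 a span of 11 tested genes held 7 called lower, among them *Pramef8*, *Pramef25* and the non-family genes *Pdpn* and *Dhrs3*. The *Ezh2* KO libraries were also low in *Zscan4* genes, at summed counts of 13.6 and 14.5, against 654 and 954 in *Ezh1/2* dKO, 58.8 and 157 in *Ezh2* Y726D and 734 and 334 in WT. *Pramel* and *Pramef* genes, by contrast, had 680 and 807 in *Ezh2* KO, 425 and 519 in *Ezh2* Y726D and 1239 and 1381 in *Ezh1/2* dKO.

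Bromodomain gene *Brd2* had normalized counts of 1051 and 996 in *Ezh1/2* dKO and 1427 and 1401 in *Ezh2* Y726D (log2 fold change 0.47, not called), and 1722 and 1420 in WT.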
